A study of Homo sapiens with 6 samples.

Results

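The genes of the mitochondrial genome were taken as the 37 of 62703 genes in the deposited table whose names start with MT-. They were 13 mRNAs for subunits of the respiratory chain, 2 ribosomal RNAs and 22 transfer RNAs, and the annotation of the human genome placed all 37 on the mitochondrial chromosome. The study sequenced mRNA of the human pancreatic cancer cell line PANC-1, with 3 libraries of DKK1-SE+/+ cells, labelled WT, and 3 of DKK1-SE-/- cells, labelled DKK1-SE-KO. DKK1-SE-/- cells lack e1, a component enhancer of the super-enhancer of DKK1, which encodes a secreted Wnt antagonist, on both alleles after CRISPR/Cas9 editing, puromycin selection and limiting dilution. Both groups were grown in DMEM with fetal bovine serum and collected in logarithmic growth. The comparison asked how removal of the enhancer altered RNA levels. The labels call the libraries biological replicates, but all DKK1-SE-/- libraries come from 1 homozygous clone, so p-values measure the spread between these samples, and the deletion cannot be told apart from other properties of that clone. Whether the DKK1-SE+/+ cells were the parental line or an unedited clone is not given in the sources used here. Summed over genes, the libraries of DKK1-SE+/+ replicates 1, 2 and 3 held 21822314, 16475810.1 and 18803154 expected counts, and those of DKK1-SE-/- replicates 1, 2 and 3 held 17359835, 20098086 and 17804764.

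Human mitochondrial DNA is a small circular genome that is transcribed on both strands into long precursors. Transfer RNAs lie between most of the other genes, and their excision releases the mRNAs and rRNAs, most of which then receive short poly(A) tails. The proteins are hydrophobic core subunits of complexes I, III, IV and V of oxidative phosphorylation, which are assembled with many subunits imported from the cytosol, while the factors that copy, transcribe, process and translate mitochondrial DNA are encoded in the nucleus.

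DKK1, the gene after which the super-enhancer is named, was examined first. Its level in TPM, the deposited length-scaled unit, was 229, 246 and 199 for DKK1-SE+/+ against 66.8, 79.8 and 82.7 for DKK1-SE-/-. The groups did not overlap, and DKK1 fell with a log2 fold change of -1.45 (standard error 0.112, adjusted p = 6.16e-06, edgeR quasi-likelihood F test, Benjamini-Hochberg). The study reported the same direction by qRT-PCR and from its RNA sequencing of these cells. Markers of the cell line were read in the same way. Keratins of simple epithelia were present, with a KRT8 TPM of 936, 948 and 988 for DKK1-SE+/+ against 1649, 1668 and 1362 for DKK1-SE-/-, and so was vimentin (VIM), the most abundant gene of the list. Of the 17 markers listed for PANC-1 and for other cells of the pancreas, 6 passed the filter on low counts, 4 of them (KRT8, KRT18, KRT19 and CD68, the last listed for leukocytes) were higher and 1 (VIM) was lower in DKK1-SE-/- cells, and KRT7 was not called (66.7% and 16.7% of those tested, against 19.8% and 19.5% of all tested genes). INS and CELA3A had a TPM of 0 in the 6 libraries. The summed TPM of the 17 was 5630.4, 6134 and 6488 for DKK1-SE+/+ against 6031, 5685 and 5424 for DKK1-SE-/-, with groups that overlapped. The other untested markers (PRSS1, CPA1, GCG, PTPRC, CD3E, PECAM1, VWF, DCN and LUM) reached a highest TPM of 0.720, for DCN in DKK1-SE+/+ replicate 3.

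On the mitochondrial chromosome of hg38, 16569 bases long, the members follow one another with few bases between them. The exception is the stretch from the end of MT-TP at 16023 round the circle to the start of MT-TF at 577. Of the mRNAs, MT-ND6 is the one encoded on the strand opposite to the other 12, and its span, chrM:14149-14673, starts next to the end of MT-ND5. The reading frames of MT-ATP8 and MT-ATP6 share 46 bases at chrM:8527-8572, and those of MT-ND4L and MT-ND4 share 7 bases at chrM:10760-10766. Reads within such an overlap belong to both genes, so their split between the neighbours is uncertain. The shared stretch of the complex V genes is printed because it is shared by both and MT-ATP8 is short, on the strand of both genes.
MT-ATP8 and MT-ATP6 overlap: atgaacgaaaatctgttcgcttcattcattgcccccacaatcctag

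Counts on the transfer RNAs came mostly from a cluster that is encoded on the minus strand between MT-ND2 and MT-CO1. The 4 genes of the cluster are shown as hg38 sequences on their own strand, with the anticodon in capitals. MT-TA at chrM:5587-5655 carries alanine, MT-TN at chrM:5657-5729 asparagine, MT-TC at chrM:5761-5826 cysteine and MT-TY at chrM:5826-5891 tyrosine. Each equalled the annotated transcript.
MT-TA: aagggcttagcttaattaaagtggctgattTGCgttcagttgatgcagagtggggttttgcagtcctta
MT-TN: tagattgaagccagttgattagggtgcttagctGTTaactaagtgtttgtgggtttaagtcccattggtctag
MT-TC: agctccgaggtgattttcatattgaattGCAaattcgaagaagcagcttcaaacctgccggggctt
MT-TY: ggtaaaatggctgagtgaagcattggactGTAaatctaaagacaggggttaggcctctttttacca

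The share of all expected counts that fell on the 37 genes was higher in each DKK1-SE-/- library than in each DKK1-SE+/+ library. It was 5.48, 6.38 and 6.28% for DKK1-SE+/+ replicates 1, 2 and 3 against 8.58, 7.31 and 7.40% for DKK1-SE-/- replicates 1, 2 and 3, or 6.05% ± 0.493 against 7.77% ± 0.710 (SD, n = 3 libraries). The lowest library was DKK1-SE+/+ replicate 1 and the highest DKK1-SE-/- replicate 1, and the groups did not overlap. The difference of 1.72 percentage points, a ratio of 1.28, was larger than the SD of either group. A two-sided exact permutation test gave p = 0.1, the smallest value that 3 samples against 3 allow, and 0.138 after Benjamini-Hochberg adjustment over the 22 relations of shares and ratios computed. A share is relative. In bulk RNA, more cells with a high mitochondrial content, more mitochondrial RNA per cell and less nuclear-encoded RNA per cell cannot be told apart. Leaving out DKK1-SE-/- replicate 1 left a difference of 1.31 percentage points, the smallest among the fits without a library.

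The mRNAs and the rRNAs had similar ratios. The 13 mRNAs held 4.02% ± 0.206 of the counts in DKK1-SE+/+ and 5.16% ± 0.605 in DKK1-SE-/- libraries (SD, n = 3), a ratio of 1.28. The 2 rRNAs held 2.03% ± 0.287 and 2.61% ± 0.283 (SD, n = 3), a ratio of 1.28. Neither set overlapped between the groups. The counts of rRNA per count of mRNA were 0.450, 0.533 and 0.530 for DKK1-SE+/+ against 0.476, 0.453 and 0.600 for DKK1-SE-/-, and these overlapped, with a difference of 0.00494 that was smaller than either SD (two-sided exact permutation test, p = 0.9). By complex, the ratio of shares was 1.43 for the mRNAs of complex V, 1.37 for complex I, 1.30 for complex III and 1.21 for complex IV. Each of these shares of counts was higher in the DKK1-SE-/- libraries without overlap, with p = 0.1 in the two-sided exact permutation test and 0.138 after the same adjustment over the 22 relations. By TPM the ratios were 1.24 for complex V, 1.26 for complex I, 1.22 for complex III and 1.15 for complex IV, and the share of complex V then overlapped between the groups (two-sided exact permutation test, p = 0.2).

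After the filter on low counts, 17 of the 37 genes were tested among 15179 genes, namely the 13 mRNAs, the 2 rRNAs, MT-TA and MT-TN. At an adjusted p under 0.05 (edgeR quasi-likelihood F test, Benjamini-Hochberg), 14 were called, all of them higher in DKK1-SE-/- cells, where 19.8% of all tested genes were called higher and 19.5% lower (39.3% in either direction). They were 11 of the 13 mRNAs, both rRNAs and MT-TN. None of the 17 was lower: edgeR called 0, with 0 at an unadjusted p under 0.05, and DESeq2 and limma also called 0. The median log2 fold change of the 13 mRNAs was 0.55, a 1.46-fold difference, with single values from 0.30 to 0.70, beside a median of 0.03 over all tested genes. By normalized CPM, counts scaled to the library size and the TMM factor, 15 of the 17 had groups that did not overlap and were higher in DKK1-SE-/- cells, where 26.2% of all tested genes did so in that direction and 25.7% in the other (51.9% in either).  The study called genes by an unadjusted p under 0.05 and a limit of 1.2 on the fold change. With that limit taken as a log2 value, 1 of the 17 passed, MT-TN, which was higher, where 4.96% of all tested genes passed as higher and 3.7% as lower (8.66% in either direction). With it taken as a linear fold, a rule added after seeing the data, 16 of the 17 passed, all higher, where 24.3% of all tested genes passed as higher and 23.3% as lower (47.6% in either direction). The study's own count of changed genes lies near the 1314 that passed the log2 limit, far below the 7227 of the linear limit.

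**Figure D1:**
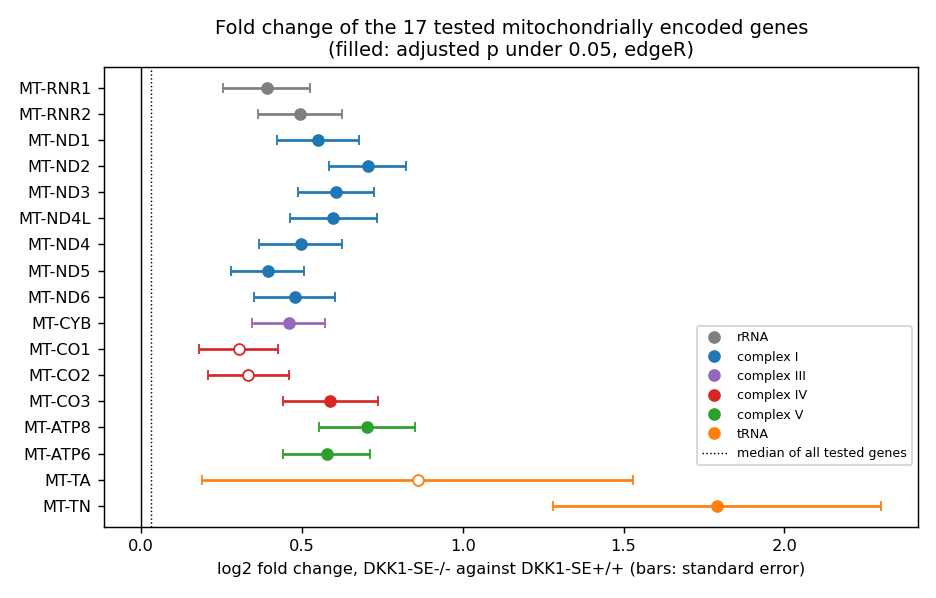
Log2 fold change of DKK1-SE-/- against DKK1-SE+/+ cells for the 17 tested genes (points, with standard errors as bars), coloured by role and filled where the adjusted p was under 0.05. All points lie to the right of the dotted median of all tested genes at 0.03, from 0.30 for MT-CO1 to 1.79 for MT-TN.

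The number of calls was smaller in a fit that changed both the unit and the test, and the part of each was not tested. Limma with a trend on log2(TPM + 1) called 1 of the 17, MT-ND2, with 9.82% of all tested genes called higher and 17.6% lower (27.4% in either direction). The median log2 difference of the 13 mRNAs was then 0.29 on the log2(TPM + 1) scale, and that of all tested genes -0.08, so the mRNAs stood 0.37 above it, against 0.52 in the count fit. TPM values of 10 mRNAs did not overlap between the groups and were higher in DKK1-SE-/- cells, where this held for 17.5% of all tested genes and the opposite for 26.7% (44.2% in either direction). The 37 genes held 12.7 ± 1.18 to 15.4 ± 1.54% of the TPM (SD, n = 3), DKK1-SE+/+ to DKK1-SE-/-, and did not overlap. Calls described below for single genes are those of the count fit. With limma on TPM those of the mRNAs and rRNAs were lost except for MT-ND2, and the transfer RNAs have no TPM above 0.

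The mean fragment length implied by the deposited values differed between the groups. The ratio of count to TPM grew linearly with gene length over the members longer than 900 bases, and the length at which that line reaches 0 was 243, 243 and 240.5 for DKK1-SE+/+ against 228, 238 and 231 for DKK1-SE-/-, in bases. All DKK1-SE-/- values lay below the DKK1-SE+/+ values. For the short MT-ATP8 the implied effective length, the number of positions at which a fragment can start, was 15.1, 14.6 and 15.8 for DKK1-SE+/+ against 18.9, 16.6 and 18.7 for DKK1-SE-/-, and its log2 fold change was 0.70 on counts but 0.28 on log2(TPM + 1). For MT-ND5, the longest mRNA, the corresponding values were 0.39 and 0.23. The part of fragment length in the differences between the groups was not tested.

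MT-ND2, an antiporter-like subunit of the proton-pumping arm of complex I (NADH dehydrogenase) at chrM:4470-5511, had the largest log2 fold change among the mRNAs of that complex in the count fit, though not with the GC-content offset (0.92 against 0.95 for MT-ND3) or with offset and replicate block (0.90 against 0.91). Its normalized CPM was 2506, 2815 and 2761 for DKK1-SE+/+ against 5053, 4336 and 3782 for DKK1-SE-/-. The DKK1-SE-/- libraries were all above the DKK1-SE+/+ libraries, with a log2 fold change of 0.70 (standard error 0.12, adjusted p = 0.00107, edgeR quasi-likelihood F test, Benjamini-Hochberg). The TPM rose from 4423 ± 307 to 6397 ± 557 (SD, n = 3) without overlap. Its call held under all 16 alternatives, with log2 fold changes from 0.53 to 0.92.

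The other mRNAs of complex I also rose. MT-ND1, whose product borders the ubiquinone site, had a normalized CPM of 1535, 1797 and 1753 for DKK1-SE+/+ against 2929.6, 2338 and 2176 for DKK1-SE-/-, with a log2 fold change of 0.55 (standard error 0.127, adjusted p = 0.00594, edgeR quasi-likelihood F test, Benjamini-Hochberg). Its groups did not overlap, and DKK1-SE-/- replicate 1 was the highest library, as it was for the other mRNAs of this complex.

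MT-ND3 and MT-ND4L encode small membrane subunits of complex I. The normalized CPM of MT-ND3 was 469, 488 and 464 for DKK1-SE+/+ against 828, 719 and 615 for DKK1-SE-/-. That of MT-ND4L was 631, 651 and 675 for DKK1-SE+/+ against 1198, 953 and 812 for DKK1-SE-/-. Neither gene overlapped between the groups, and MT-ND3 rose with a log2 fold change of 0.61 (standard error 0.118, adjusted p = 0.00239, edgeR quasi-likelihood F test, Benjamini-Hochberg). MT-ND4L rose with a log2 fold change of 0.60 (standard error 0.135, adjusted p = 0.00531, edgeR quasi-likelihood F test, Benjamini-Hochberg).

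MT-ND4 and MT-ND5 encode the other antiporter-like subunits. The normalized CPM of MT-ND4 was 4057, 4773 and 4856 for DKK1-SE+/+ against 7646, 5978 and 5677 for DKK1-SE-/-. That of MT-ND5 was 3222, 3611 and 3478 for DKK1-SE+/+ against 5130.0, 4438 and 3984 for DKK1-SE-/-. Neither gene overlapped between the groups, and MT-ND4 rose with a log2 fold change of 0.50 (standard error 0.13, adjusted p = 0.0116, edgeR quasi-likelihood F test, Benjamini-Hochberg). MT-ND5 rose with a log2 fold change of 0.39 (standard error 0.114, adjusted p = 0.0181, edgeR quasi-likelihood F test, Benjamini-Hochberg).

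MT-ND6 is a membrane subunit of complex I and the mRNA of the opposite strand, so it comes from the other precursor. Its normalized CPM was 482, 587 and 572 for DKK1-SE+/+ against 888, 707 and 689.9 for DKK1-SE-/-. The groups did not overlap, with a log2 fold change of 0.48 (standard error 0.126, adjusted p = 0.012, edgeR quasi-likelihood F test, Benjamini-Hochberg), a value inside the range of the mRNAs of the other strand. Whether the counting used strand is not given in the sources used here, so reads from antisense precursors cannot be told apart from those of the annotated strand. The libraries were made from poly(A) RNA, and the poly(A) tails of MT-ND6 RNA were not measured. Counts of MT-ND6 may therefore not compare directly with those of the other mRNAs. Without DKK1-SE+/+ replicate 1 the calls of MT-ND4, MT-ND5 and MT-ND6 were lost, at log2 fold changes of 0.42, 0.35 and 0.39. The call of MT-ND5 was also lost without DKK1-SE+/+ replicate 2 (0.43) and without replicate 3 (0.40), and with a replicate block (0.39).

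MT-CYB, cytochrome b, is the subunit of complex III that mitochondrial DNA encodes, at chrM:14747-15887. It had a normalized CPM of 2266, 2455 and 2481 for DKK1-SE+/+ against 3782, 3214 and 2901 for DKK1-SE-/-. All DKK1-SE-/- libraries were higher, with a log2 fold change of 0.46 (standard error 0.115, adjusted p = 0.00913, edgeR quasi-likelihood F test, Benjamini-Hochberg).

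The mRNAs of complex IV, cytochrome c oxidase, differed in whether they passed the test. MT-CO1 encodes the subunit that reduces oxygen and had the most counts of the 13 mitochondrial mRNAs, with a normalized CPM of 11488, 12239.8 and 11813 for DKK1-SE+/+ against 16552, 15339 and 11966 for DKK1-SE-/-. Its groups overlapped, since DKK1-SE-/- replicate 3 lay below DKK1-SE+/+ replicate 2, and the log2 fold change of 0.30 (standard error 0.123) did not pass the test (adjusted p = 0.0722, edgeR quasi-likelihood F test, Benjamini-Hochberg). MT-CO2, whose product takes electrons from cytochrome c, had a normalized CPM of 5539, 6299 and 6448 for DKK1-SE+/+ against 9093, 7127 and 6816 for DKK1-SE-/-. The groups of MT-CO2 did not overlap, but a log2 fold change of 0.33 (standard error 0.126, adjusted p = 0.0555, edgeR quasi-likelihood F test, Benjamini-Hochberg) did not pass either. Without DKK1-SE-/- replicate 3 both passed, at 0.41 for MT-CO1 and 0.39 for MT-CO2, and without the filter on low counts both passed as well (0.29 and 0.32). DESeq2 and the GC-content offset called MT-CO2 but not MT-CO1. Without DKK1-SE-/- replicate 1 the log2 fold changes came down to 0.19 for MT-CO1 and 0.18 for MT-CO2, and neither passed.

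MT-CO3, a core subunit of the same enzyme that carries no metal centre, was called, unlike MT-CO1 and MT-CO2. The difference between these mRNAs was not tested. Its normalized CPM was 2609, 3211 and 3099.8 for DKK1-SE+/+ against 5579, 3932 and 3900.4 for DKK1-SE-/-. The groups did not overlap, DKK1-SE-/- replicate 1 stood highest, and MT-CO3 rose with a log2 fold change of 0.59 (standard error 0.148, adjusted p = 0.00944, edgeR quasi-likelihood F test, Benjamini-Hochberg). Without DKK1-SE-/- replicate 1 the value was 0.38, and it still passed.

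Both mRNAs of complex V, the ATP synthase, rose. MT-ATP6, which forms part of the proton channel, had a normalized CPM of 1429, 1708 and 1755 for DKK1-SE+/+ against 2931, 2188 and 2178 for DKK1-SE-/- and a log2 fold change of 0.58 (standard error 0.137, adjusted p = 0.00687, edgeR quasi-likelihood F test, Benjamini-Hochberg). MT-ATP8, a small subunit of the membrane part, had a normalized CPM of 156, 181 and 173 for DKK1-SE+/+ against 347, 228 and 256 for DKK1-SE-/-. Neither gene overlapped between the groups, and MT-ATP8 had a log2 fold change of 0.70 (standard error 0.149, adjusted p = 0.00374, edgeR quasi-likelihood F test, Benjamini-Hochberg). The value of MT-ATP8 was 1.14 with the GC-content offset and 1.08 with offset and replicate block. The 46 shared bases and the short length of MT-ATP8 make its own value less certain than that of MT-ATP6.

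MT-RNR1 and MT-RNR2 encode the rRNAs of the small and large subunits of the mitochondrial ribosome, at chrM:648-1601 and chrM:1671-3229. MT-RNR1 had a normalized CPM of 10089.9, 13457 and 13439 for DKK1-SE+/+ against 17999, 14216 and 16278 for DKK1-SE-/-. The groups were separate by a narrow margin, between DKK1-SE+/+ replicate 2 and DKK1-SE-/- replicate 2, with a log2 fold change of 0.39 (standard error 0.135, adjusted p = 0.0388, edgeR quasi-likelihood F test, Benjamini-Hochberg). The call of MT-RNR1 was lost in 10 of 16 alternatives, at log2 fold changes from 0.23 to 0.48 over all 16, including every fit without a library except that without DKK1-SE-/- replicate 2. Those fits gave 0.27, 0.46 and 0.46 without DKK1-SE+/+ replicates 1, 2 and 3, and 0.29 and 0.37 without DKK1-SE-/- replicates 1 and 3.

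MT-RNR2 had a normalized CPM of 6289.9, 8315 and 7942 for DKK1-SE+/+ against 11469.7, 9127 and 11154 for DKK1-SE-/-. Its groups did not overlap, with a log2 fold change of 0.49 (standard error 0.131, adjusted p = 0.0124, edgeR quasi-likelihood F test, Benjamini-Hochberg), and its call was lost without DKK1-SE+/+ replicate 1 (0.38). The counts of MT-RNR2 per count of MT-RNR1 were 0.623, 0.618 and 0.591 for DKK1-SE+/+ against 0.637, 0.642 and 0.685 for DKK1-SE-/-. All DKK1-SE-/- values were higher, with a difference of 0.0441 that was larger than either SD (two-sided exact permutation test, p = 0.1, 0.138 after Benjamini-Hochberg adjustment over the 22 relations). The TPM values of both rRNAs overlapped between the groups. The libraries were made from poly(A) RNA, so these counts are not the total amount of mitochondrial rRNA in the cells.

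Of the 22 transfer RNAs, 14 had a count of 0 in every library, and all 22 were listed at a TPM of 0. Mature transfer RNAs have no poly(A) tail and are shorter than the fragments, so the few counts need not follow their amounts. On the 8 genes of the minus strand the counts summed to 42, 6 and 19 for DKK1-SE+/+ against 55, 92 and 31 for DKK1-SE-/-, and 6 of the 8 had at least a count. On the 14 genes of the plus strand they summed to 2, 0 and 0 and to 2, 0 and 2, from 2 genes.

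MT-TN, the asparagine transfer RNA of the cluster printed above, had 17, 4 and 13 counts for DKK1-SE+/+ against 28, 63 and 18 for DKK1-SE-/-. In normalized CPM the groups did not overlap, with DKK1-SE-/- replicate 2 far above the rest, and MT-TN rose with a log2 fold change of 1.79 (standard error 0.51, adjusted p = 0.017, edgeR quasi-likelihood F test, Benjamini-Hochberg). Its call was lost without DKK1-SE-/- replicate 2 (1.24) and without DKK1-SE+/+ replicate 2 (1.46). MT-TA, the alanine transfer RNA next to it, had 23, 2 and 3 counts for DKK1-SE+/+ against 16, 20 and 9 for DKK1-SE-/-. The groups of MT-TA overlapped, and its log2 fold change of 0.86 did not pass the test (standard error 0.67, adjusted p = 0.334, edgeR quasi-likelihood F test, Benjamini-Hochberg). Without DKK1-SE+/+ replicate 1, which held most of the counts of its group, the log2 fold change of MT-TA was 2.53 and passed. It was 0.46 without DKK1-SE+/+ replicate 2 and 0.47 without replicate 3, and did not pass in either.

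The DKK1-SE-/- libraries differed among themselves. Relative to the DKK1-SE+/+ mean, the normalized CPM of the 15 mRNAs and rRNAs lay at 1.40 to 2.04 in DKK1-SE-/- replicate 1, at 1.15 to 1.61 in replicate 2 and at 1.01 to 1.51 in replicate 3. Among the DKK1-SE+/+ libraries, replicate 1 was the lowest for most genes, at 0.818 to 0.991, while replicates 2 and 3 lay at 0.998 to 1.11 and 0.979 to 1.09. Without DKK1-SE-/- replicate 1 the median log2 fold change of the 13 mRNAs was 0.38, and 13 mitochondrially encoded genes were called higher. In that fit 2505 of all 15179 tested genes were called higher, against 3013 with all libraries. Without DKK1-SE+/+ replicate 1 the median of the 13 mRNAs was 0.48, with 10 mitochondrially encoded genes and 2109 of all 15179 tested genes called higher.

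**Figure D2:**
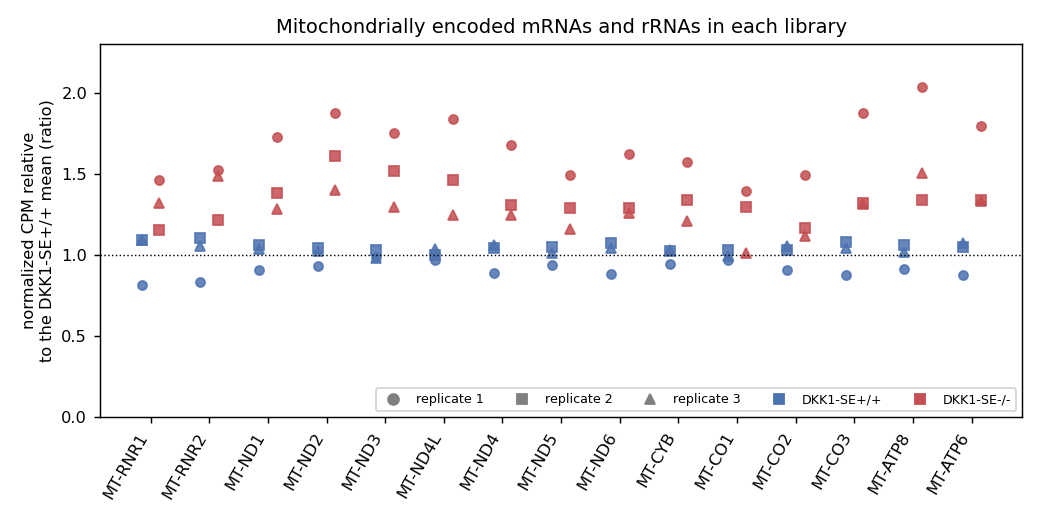
Normalized CPM of the 13 mRNAs and 2 rRNAs in each library, as a ratio to the mean of the DKK1-SE+/+ libraries (dotted line at 1). Symbols mark the replicates. DKK1-SE-/- replicate 1 reaches 2.04 for MT-ATP8, and DKK1-SE-/- replicate 3 comes down to 1.01 for MT-CO1.

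The composition of the mitochondrial mRNA counts shifted slightly. As a percentage of the counts of the 13 mRNAs, MT-ND2 was 6.89, 6.90 and 6.85 for DKK1-SE+/+ against 8.16, 8.42 and 8.27 for DKK1-SE-/-. This was the largest shift upward without overlap, from 6.88 ± 0.0272 to 8.28 ± 0.133% (SD, n = 3). MT-ND1, MT-ND3 and MT-ND4L also had higher percentages without overlap, from 4.32% to 4.67%, from 1.21% to 1.36% and from 1.67% to 1.85%. MT-CO2 had a lower percentage without overlap, from 15.5 ± 0.396 to 14.5 ± 0.558% (SD, n = 3). MT-CO1, with 30.3 ± 1.17 to 27.6 ± 1.96% (SD, n = 3), overlapped, as did the remaining mRNAs. By TPM, in which length is taken out, MT-ND1 and MT-ND2 again had higher and MT-CO2 a lower percentage without overlap, MT-ND5 was lower, and the other 9 overlapped. These percentages were not tested.

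**Figure D3:**
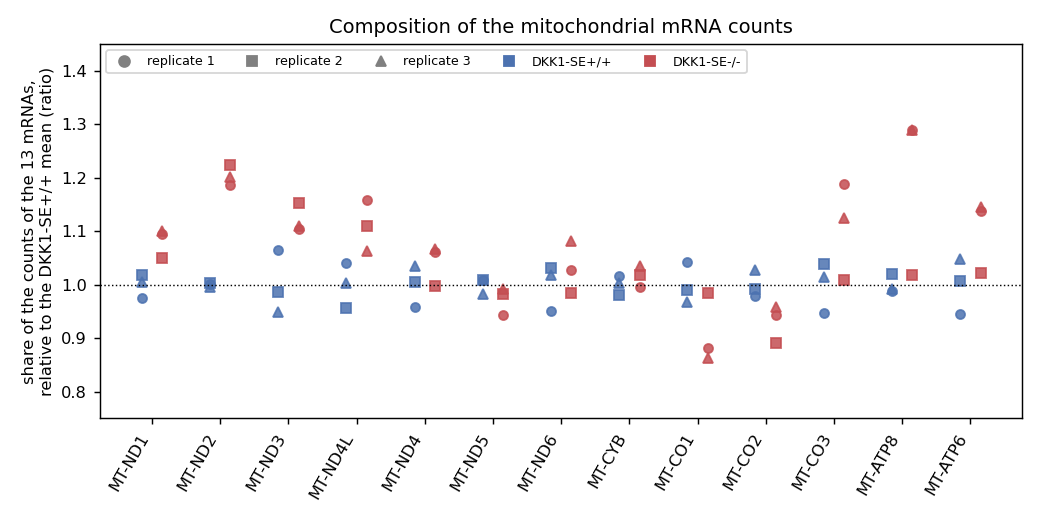
Share of each mRNA among the counts of the 13 mitochondrial mRNAs in each library, as a ratio to the mean share of the DKK1-SE+/+ libraries (dotted line at 1). Symbols mark the replicates. The MT-ND2 share is higher in all DKK1-SE-/- libraries, with means of 6.88% and 8.28%, and the MT-CO2 share is lower in all of them.

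Per length, the levels of the members spanned a wide range in DKK1-SE+/+ cells. MT-RNR1 had the highest mean TPM, 22754 ± 3751 (SD, n = 3), followed by MT-CO2 with 18112 ± 1581, MT-ATP8 with 14767 ± 1499, MT-ND4L with 12716 ± 426 and MT-CO1 with 11966 ± 474. MT-RNR2 with 7499 ± 1135 and MT-CO3 with 7207 ± 834 came next. Lower in the order were MT-ND3 (5712 ± 219.7), MT-ND4 (5275 ± 551), MT-ATP6 (4880.2 ± 562) and MT-ND2 (4423 ± 307). Many neighbours in this order differed by less than the sum of their SDs. MT-CYB (3507 ± 201), MT-ND1 (3118 ± 284), MT-ND5 (2875 ± 189) and MT-ND6 (2538 ± 281) were the lowest of the mRNAs. The TPM of MT-ATP8 and MT-ND4L rests on short effective lengths and on overlaps with a neighbour.

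Copies of mitochondrial DNA in the nuclear genome can share reads with the members. The deposited table listed 402 of them by name, of which 71 had counts and 4 had at least 10 counts in every library. MTATP6P1, at chr1:633696-634376, was 98.5% identical to MT-ATP6 over 681 aligned bases and held counts equal to 8.93, 9.28 and 9.05% of those of MT-ATP6 for DKK1-SE+/+ against 9.78, 9.47 and 9.80% for DKK1-SE-/-. It rose too, by 0.67 on the log2 scale (adjusted p = 0.00415, edgeR quasi-likelihood F test, Benjamini-Hochberg). MTCO1P12 (98.7% identical to MT-CO1) and MTND2P28 (98.4% identical to MT-ND2) rose as well, with log2 fold changes of 0.46 and 0.78. MTND6P3 (89.1% identical to MT-ND6) had 0.56 and did not pass (adjusted p = 0.0801, edgeR quasi-likelihood F test, Benjamini-Hochberg). How the counting divided such reads is not given in the sources used here, so values of these pairs are uncertain to that extent. All copies together held counts equal to 0.330, 0.322 and 0.319% of those of the 37 genes for DKK1-SE+/+ against 0.383, 0.361 and 0.368% for DKK1-SE-/-.

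Base composition and RNAs that mostly lack a long poly(A) tail or stay in the nucleus are given beside these results. Poly(A) selection need not leave out all of them. The GC content of the mRNAs and rRNAs was 39.6% to 47.7%. The 4939 other tested genes in this range had a median log2 fold change of -0.12, below the median of all tested genes, and with a GC-content offset per library the median of the 13 mRNAs was 0.62. Of 9 RNAs that lack a long poly(A) tail or stay in the nucleus, 7 were tested. The signal recognition particle RNAs RN7SL1 and RN7SL2, named after their values were seen, were called higher in DKK1-SE-/- cells (log2 fold changes of 0.35 and 0.55), the other 5 were not called (2 of 7 is 28.6%, against 19.8% of all tested genes), and the median of the list was 0.26. The summed TPM of the 9, with RN7SL2 the most abundant, was 15803, 18553 and 19786 for DKK1-SE+/+ against 19943, 16659 and 22536 for DKK1-SE-/-, with groups that overlapped. Of 65 replication-dependent histone genes, whose mRNAs mostly end without a poly(A) tail, 42 were tested, 3 were higher and 1 was lower (7.14% and 2.38%, against 19.8% and 19.5% of all tested genes), with a median of 0.02 and a most abundant member in H2BC12. Their summed TPM was 785, 1014 and 1108 for DKK1-SE+/+ against 938, 778 and 959 for DKK1-SE-/-, also overlapping. Any transcripts of these genes that do carry a tail were not counted apart. The part of carried-over RNA in the mitochondrial values was not tested.

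Of 25 genes for transcription and maintenance of mitochondrial DNA, all tested, 2 were higher and 7 lower (8% and 28%, against 19.8% and 19.5% of all tested genes), with a median log2 fold change of -0.12. TFAM, which packages mitochondrial DNA and opens its promoters, had a TPM of 42.3, 39.5 and 36.5 for DKK1-SE+/+ against 27.8, 33.5 and 41.3 for DKK1-SE-/-. Its groups overlapped, with a log2 fold change of -0.21 that did not pass (standard error 0.15, adjusted p = 0.284, edgeR quasi-likelihood F test, Benjamini-Hochberg) and that became 0.28 and passed with the GC-content offset. It was -0.38 and passed without DKK1-SE-/- replicate 3. POLRMT, the mitochondrial RNA polymerase, had a TPM of 33.9, 34.5 and 34.7 for DKK1-SE+/+ against 43.0, 32.5 and 35.8 for DKK1-SE-/-, also overlapping, with 0.30 as log2 fold change (adjusted p = 0.149, edgeR quasi-likelihood F test, Benjamini-Hochberg) that became -0.08 with the GC-content offset and passed without DKK1-SE-/- replicate 3 (0.42). The list held 1 higher and 3 lower calls without DKK1-SE+/+ replicate 2, 1 and 4 without DKK1-SE+/+ replicate 3 or without DKK1-SE-/- replicate 2, 1 and 5 without DKK1-SE+/+ replicate 1, and 5 and 11 without DKK1-SE-/- replicate 3. Over all 15179 tested genes, the higher and lower calls were 3013 and 2959 with all libraries. In these fits, in the same order, they were 1986 and 2015, 2318 and 2310, 2292 and 2343, 2109 and 2145, and 3662 and 3856. TOP1MT, a topoisomerase, rose (0.80), and the nuclease DNA2 (-0.89), the rRNA methyltransferase TFB1M (-0.78) and the helicase TWNK (-0.54) had negative log2 fold changes that passed the test. With the GC-content offset DNA2 was -0.44, and the list held 5 higher and 8 lower calls.

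Of 31 genes for mitochondrial RNA processing and stability, all tested, 7 were higher and 12 lower (22.6% and 38.7%, against 19.8% and 19.5% of all tested genes), with a median log2 fold change of -0.08. LRPPRC, which binds mitochondrial mRNAs and keeps them stable, had a TPM of 93.4, 97.4 and 88.3 for DKK1-SE+/+ against 41.7, 59.4 and 84.9 for DKK1-SE-/-. All DKK1-SE-/- values were lower, with a log2 fold change of -0.46 at the edge of the threshold (standard error 0.169, adjusted p = 0.0491, edgeR quasi-likelihood F test, Benjamini-Hochberg). The call was lost in 10 of 16 alternatives, which included a value of -0.06 with the GC-content offset and, without single libraries, values from -0.29 (DKK1-SE-/- replicate 1) to -0.49 (DKK1-SE+/+ replicate 3), while the fit without DKK1-SE-/- replicate 3 kept it (-0.71). Its partner SLIRP had a TPM of 329.7, 247 and 199 for DKK1-SE+/+ against 151, 274 and 138 for DKK1-SE-/-, overlapping, with -0.21 as log2 fold change (adjusted p = 0.556, edgeR quasi-likelihood F test, Benjamini-Hochberg), 0.20 with the GC-content offset and 0.02 without DKK1-SE+/+ replicate 1. The list held 10 higher and 13 lower calls without DKK1-SE-/- replicate 3 but 3 and 8, 3 and 6, and 3 and 7 without DKK1-SE+/+ replicates 1, 2 and 3, and 3 and 9 without DKK1-SE-/- replicate 2. In the same order, the calls over all 15179 tested genes were 3662 and 3856, 2109 and 2145, 1986 and 2015, 2318 and 2310, and 2292 and 2343. FASTK, a mitochondrial RNA-binding protein, rose (1.01). Its relatives FASTKD1 (-0.81) and FASTKD2 (-0.84) and the exoribonuclease PNPT1 (-1.04) had negative log2 fold changes that passed. With the GC-content offset FASTKD1 was -0.43 and PNPT1 -0.68, and the list held 6 higher and 8 lower calls. It held 2 and 8 with limma on TPM.

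Of 95 genes of the mitochondrial ribosome and translation, 8 were higher and 18 lower (8.42% and 18.9%, against 19.8% and 19.5% of all tested genes), with a median log2 fold change of 0.02. The ribosomal proteins MRPL39 (-1.30), MRPL19 (-1.15) and MRPL35 (-0.82) and the release factor MTRF1L (-1.24) were among the lower genes. With the GC-content offset MRPL19 was -0.67 and MRPL35 -0.46, and the list held 11 higher and 12 lower calls, or 10 and 11 with offset and replicate block. Without DKK1-SE-/- replicate 3 it held 31 and 24, where 3662 of all 15179 tested genes were called higher and 3856 lower. Of 15 regulators of mitochondrial biogenesis, 13 were tested, 1 was higher and 5 were lower (7.69% and 38.5%, against 19.8% and 19.5% of all tested genes), with a median of -0.13. They included the transcription factors GABPA (-1.67) and CREB1 (-0.83) and the catalytic subunits of AMP-activated kinase, PRKAA1 (-0.57) and PRKAA2 (-0.57), which lost their calls with the GC-content offset (-0.09 and -0.08). The offset gave -0.33 for CREB1, and 2 higher and 4 lower calls. Without DKK1-SE+/+ replicate 2 the regulators called were 3, all lower, where 1986 of all 15179 tested genes were called higher and 2015 lower. The call of PRKAA2 was also lost without DKK1-SE+/+ replicate 2 (-0.51).

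Of 24 genes often read as a measure of mitochondrial content, 2 were higher and 6 lower (8.33% and 25%, against 19.8% and 19.5% of all tested genes), with a median log2 fold change of 0.01. Their summed TPM, with SLC25A3, the phosphate carrier, as the most abundant member over the 6 libraries together but the chaperonin HSPE1 in the DKK1-SE+/+ mean, was 5188, 5147 and 4997 for DKK1-SE+/+ against 3846, 4244 and 4196 for DKK1-SE-/-, lower in all DKK1-SE-/- libraries. The chaperonin HSPD1 (-0.94), the import receptor TOMM20 (-0.65) and the outer membrane channel VDAC3 (-0.83) had negative log2 fold changes that passed, and VDAC2, a related channel, rose (0.64). With the GC-content offset HSPD1 was -0.56 and TOMM20 -0.36, and the list held 2 higher and 8 lower calls. It held 14 calls, 7 in each direction, without DKK1-SE-/- replicate 3. In that fit 3662 of all 15179 tested genes were called higher and 3856 lower. Of 74 nuclear subunits of the same respiratory complexes, 4 were higher and 4 lower (5.41% and 5.41%, against 19.8% and 19.5% of all tested genes), with a median of 0.06, and the calls included NDUFB4 (0.84), CYC1 (0.74, and 0.37 with the GC-content offset), ATP5PF (-1.09) and ATP5PO (-0.57). The higher and lower calls were 11 and 5 with the GC-content offset, 6 and 11 without the filter, 2 and 10 with limma on TPM, 2 and 3 without DKK1-SE+/+ replicate 2, 3 and 2 without DKK1-SE+/+ replicate 3, 2 and 14 without DKK1-SE-/- replicate 2, and 16 and 5 without DKK1-SE-/- replicate 3. For all tested genes these calls were 3175 and 3094 with the offset and 3298 and 3247, of 31045 tested, without the filter. With limma on log2(TPM + 1) they were 1491 and 2670. In the fits without single libraries they were, in the same order, 1986 and 2015, 2318 and 2310, 2292 and 2343, and 3662 and 3856. Chromosomal positions of the genes on the nuclear lists were not compared, so genes of different lists need not have changed independently.

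**Figure D4:**
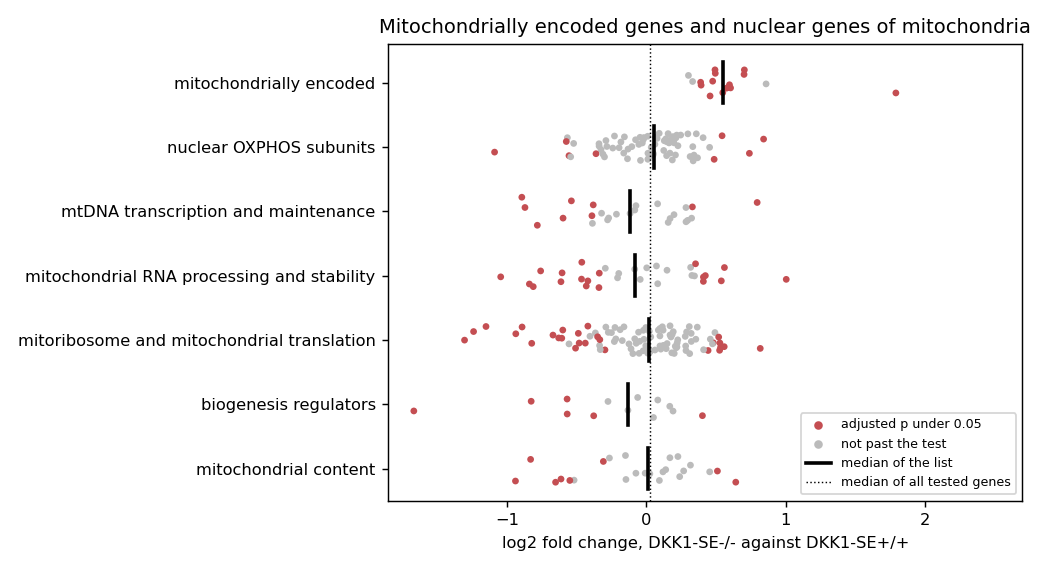
Log2 fold change of DKK1-SE-/- against DKK1-SE+/+ cells for the tested mitochondrially encoded genes and for the tested genes of the nuclear lists (1 point a gene, red where the adjusted p was under 0.05). Thick lines mark the medians, which lie between -0.13 and 0.06 for the nuclear lists, and the dotted line marks the median of all tested genes, 0.03.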

How the data were processed

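RNA was measured in 3 DKK1-SE+/+ and 3 DKK1-SE-/- libraries of PANC-1 cells. The authors extracted RNA with TRIzol, made Illumina Stranded mRNA Prep libraries from 1 µg of total RNA at Majorbio and used build hg38, and the aligner, the counter and the annotation are not given in the sources used here. The authors deposited expected counts per gene and library, which are not normalized, and 32.3% of the values above 0 were not whole. The TPM values are as deposited, already scaled for gene length and library, and the deposited gene lengths are in bases. Of the 12 columns that hold values of single samples, 0 were left unmapped. The authors' own comparison columns (fold change, log2 fold change, p, adjusted p and mean TPM of each group) were not used. The depth was 16475810.1 to 21822314 expected counts per library.

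Expected counts were rounded to whole numbers. In R 4.3.3, genes were filtered with edgeR 4.0.16 (filterByExpr, minimum count 10), scaled with TMM and compared with the quasi-likelihood F test, and p-values were adjusted with Benjamini-Hochberg over the 15179 genes that passed. Normalized CPM was taken from the cpm function of edgeR, with the library total times the TMM factor as library size. Standard errors are the absolute log2 fold change divided by the square root of F. Shares were compared with two-sided exact permutation tests. Genes were placed by identifier on GENCODE version 44 (62625 of 62703). Sequences, identity and base composition used Python 3.11.15, Biopython 1.88 and scipy 1.17.1. The tests were run on simulated data as a check.

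Alternatives were RLE size factors, library size alone, normalization without the mitochondrial genes, no filter beyond a count of 1, DESeq2 1.42.0, limma-trend (version 3.58.1) on log2-transformed TPM with pseudocounts 1 and 0.1, a replicate block, a GC-content offset in 40 bins, both together, and leaving out each library. The members and the nuclear gene lists were chosen with earlier results of these data known. Named genes were all mitochondrially encoded ones, DKK1, TFAM, POLRMT, LRPPRC, SLIRP, from each nuclear list the 4 with the smallest p among called genes whose TPM did not overlap, and the nuclear copies with at least 10 counts in every library. The rule also named the 3 genes most like the summed mRNA TPM, which are not reported. RN7SL1, RN7SL2 and the called cell markers fall outside this rule and were named after their values were seen.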

Additional observations from a re-analysis of the deposited data

How the results depend on the processing

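All 17 tested mitochondrially encoded genes were higher in DKK1-SE-/- cells under each alternative that gave a value (16 for the mRNAs and rRNAs, 14 for MT-TA and MT-TN, whose TPM is 0). The number called higher was 10 to 15 without single libraries, 13 with library size alone, 14 with RLE size factors, 15 with DESeq2 and 16 without the filter or with the linear fold limit of 1.2, which was chosen after seeing the data. It was 1 with limma on either pseudocount and 1 with the log2 limit. The number called lower was 0 throughout. Of all 15179 tested genes, 3013 were called higher in the count fit, 1986 to 3662 without single libraries and 2496 with library size alone. With RLE size factors 2925 were called higher, with DESeq2 2934, and without the filter 3298 of 31045. With limma 1491 or 1493 were called higher, by pseudocount, with the log2 limit 753 and with the linear limit 3696. The median of the 13 mRNAs was 0.29 with either pseudocount, and 0.38 to 0.62 without single libraries. The difference in share was 2.65 percentage points by TPM and 1.31 to 1.94 without single libraries.

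Calls among nuclear oxidative phosphorylation genes numbered 17 without the filter, 16 with the GC-content offset, 14 with offset and block, and 5 to 21 without single libraries. RNA processing genes had 10 calls with limma on either pseudocount, 11 with the block, 12 with offset and block, and 9 to 23 without single libraries. Without single libraries the calls were 4 to 16 for transcription and maintenance, 18 to 55 for the mitochondrial ribosome, 3 to 7 for biogenesis and 7 to 14 for content. Calls over all 15179 tested genes numbered 4001 to 7518 in these fits, against 5972 with all libraries. They numbered 6269 with the GC-content offset, 5497 with offset and block, and 6545 of 31045 without the filter. With limma they numbered 4161 or 4125, by pseudocount. With the GC-content offset the log2 fold changes reversed for TFAM (0.28, and 0.28 with the block), POLRMT (-0.0783 and -0.0797) and SLIRP (0.20 and 0.15). SLIRP ranged from -0.58 to 0.0172 without single libraries. For single genes and shares, 58 values lost and 9 gained a call and 4 moved, while 667 kept direction and call. The cause was not tested.

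A replicate block gave 12 calls among the mitochondrially encoded genes and 4981 among all genes, against 5972. Residuals of same-numbered libraries correlated at -0.12, -0.07 and -0.11.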
